A study of Mus musculus with 9 samples.

Results

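Genes of the Wnt, Notch, FGF and TGF-beta signalling pathways were compared between SJL/J and C57BL/6J mice in liver, brain and kidney. Members were all measured genes with a single symbol whose name places them in one of these families. They comprised Wnt ligands, Frizzled receptors, Dishevelled, Sfrp, Dkk, Celsr and Vangl for Wnt, and Notch, Delta, Jagged and Hes for Notch. The Fgf and Fgfr genes stood for FGF, and the Bmp, Bmpr, Tgfb, Tgfbr and Smad genes for TGF-beta. The rule took no measured value. It found 114 genes on 122 probes among 15096 measured genes, with 42 in Wnt, 15 in Notch, 28 in FGF and 29 in TGF-beta. Of these, 4 (Fgfr1op2, Bmp2k, Tgfb1i1 and Tgfbrap1) are only named after a pathway gene, and Bmp1, which carries a BMP name, is a metalloprotease that trims procollagen.

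Each two-colour spotted array set RNA pooled from 5 male SJL/J mice aged 8 weeks, labelled with Alexa Fluor 647, against RNA pooled from 5 male C57BL/6J mice of the same age, labelled with Alexa Fluor 555. There were 3 arrays for liver, 3 for brain and 3 for kidney, which were technical replicates of the same pools with no exchange of dyes. Both strains are inbred and no treatment or engineered allele was named. The p-values below therefore measure only the spread between arrays, not between mice, and a dye effect particular to a probe is part of its ratio. Values are log2 ratios, likely SJL/J over C57BL/6J, and a positive value stands for more RNA in the SJL/J pool. The direction rests on which strain the titles name first and on the dyes, and the log base was not stated. Nnt, which is partly deleted in C57BL/6J, had a mean of 0.48 in liver (adjusted p = 0.078), while 0.61 in brain (adjusted p = 0.0415) and 0.67 in the kidney arrays (adjusted p = 0.0198) passed. The brain value of Nnt was 0.38 without brain array 3 (adjusted p = 0.187), and its kidney call was lost without kidney array 2 or 3 (adjusted p = 0.158 and 0.111). A ratio gives no level, so the labelled tissues could not be checked against their defining markers, and fewer cells of a type could not be told apart from less RNA per cell.

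Wnt proteins are secreted lipid-modified ligands that bind Frizzled receptors. Through Dishevelled they stabilise beta-catenin or, with Celsr and Vangl proteins, orient cells within a sheet. In Notch signalling, Delta and Jagged ligands on one cell activate Notch receptors on the next, and Hes repressors are the classic targets. FGF ligands activate receptor tyrosine kinases, and TGF-beta and BMP ligands activate serine-threonine kinase receptors that phosphorylate Smad proteins. All of these families pattern organs in the embryo. In the adult, Wnt ligands zone the liver lobule, BMP ligands control hepatic iron hormone synthesis, and FGF receptors in the liver restrain bile acid synthesis.

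Most of the 114 genes had mean ratios near 0, with a spread close to that of all genes. The SD of the mean ratios over members was 0.427 in liver, 0.315 in brain and 0.405 in kidney. Over all genes it was 0.432, 0.351 and 0.399 in the same order. Intensities were not used, so similar levels in both pools could not be told from a gene too weak to measure. The mean log2 ratio lay within 0.25 of 0 for 88 genes in liver, 77 in brain and 62 in kidney. The median over members was 0.01 in liver, 0.05 in brain and 0.09 in kidney, beside -0.02, 0.01 and 0.03 over all genes in the same order of tissues. In liver 16 members passed the test at an adjusted p of 0.05, 11 higher and 5 lower, while 24.5% of all genes passed (10.1% higher and 14.4% lower). In brain 19 passed, 11 higher and 8 lower, beside 17.2% of all genes (7.55% higher and 9.61% lower). In kidney 34 passed, 24 higher and 10 lower, beside 27.4% of all genes (13.5% higher and 13.9% lower). As shares of the members these counts were 14%, 16.7% and 29.8%, so that in brain and kidney the share called was near the background. In liver it was below the background in this fit. Every called member had the same sign on all 3 arrays of its tissue, which a call on their mean makes likely. Called or not, 57 members had the same sign on the 3 arrays in liver, 55 in brain and 82 in kidney. Of the 114 genes, 59 passed in no tissue, 43 in 1, 10 in 2 and 2 in all tissues. These last counts were made for members only, so they do not show whether members differ from other genes.

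The counts of members, and the shares of all genes called, depended on the arrays. The kidney count was 17 without kidney array 1, 21 without kidney array 2 and 24 without kidney array 3. The share of all genes called in kidney was 14.4%, 15.1% and 15.8% in the same order, beside 27.4% with all arrays. The brain count was 9 without brain array 1, 5 without brain array 2 and 18 without brain array 3. The matching shares of all genes were 10.1%, 6.98% and 20.7%, beside 17.2% with all arrays. Brain array 3 stood apart, with an SD of its deviations from the tissue mean of 0.297 over all genes, against 0.225 and 0.210 on the other brain arrays and 0.166 to 0.200 on the liver and kidney arrays. Over all spots it correlated at 0.52 and 0.57 with brain arrays 1 and 2, which correlated at 0.76 with each other. Its correlations with kidney arrays 1, 2 and 3 were higher, at 0.60, 0.58 and 0.63. The reason was not tested. When the brain arrays were fitted alone, 2 members passed, beside 3.07% of all genes. In all of the alternative gene-level fits at the same threshold, 9 of the 16 liver calls, 0 of the 19 brain calls and 10 of the 34 kidney calls were kept. When row and column medians of the spots were subtracted, the liver split became 16 higher and 3 lower.

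**Figure D1:**
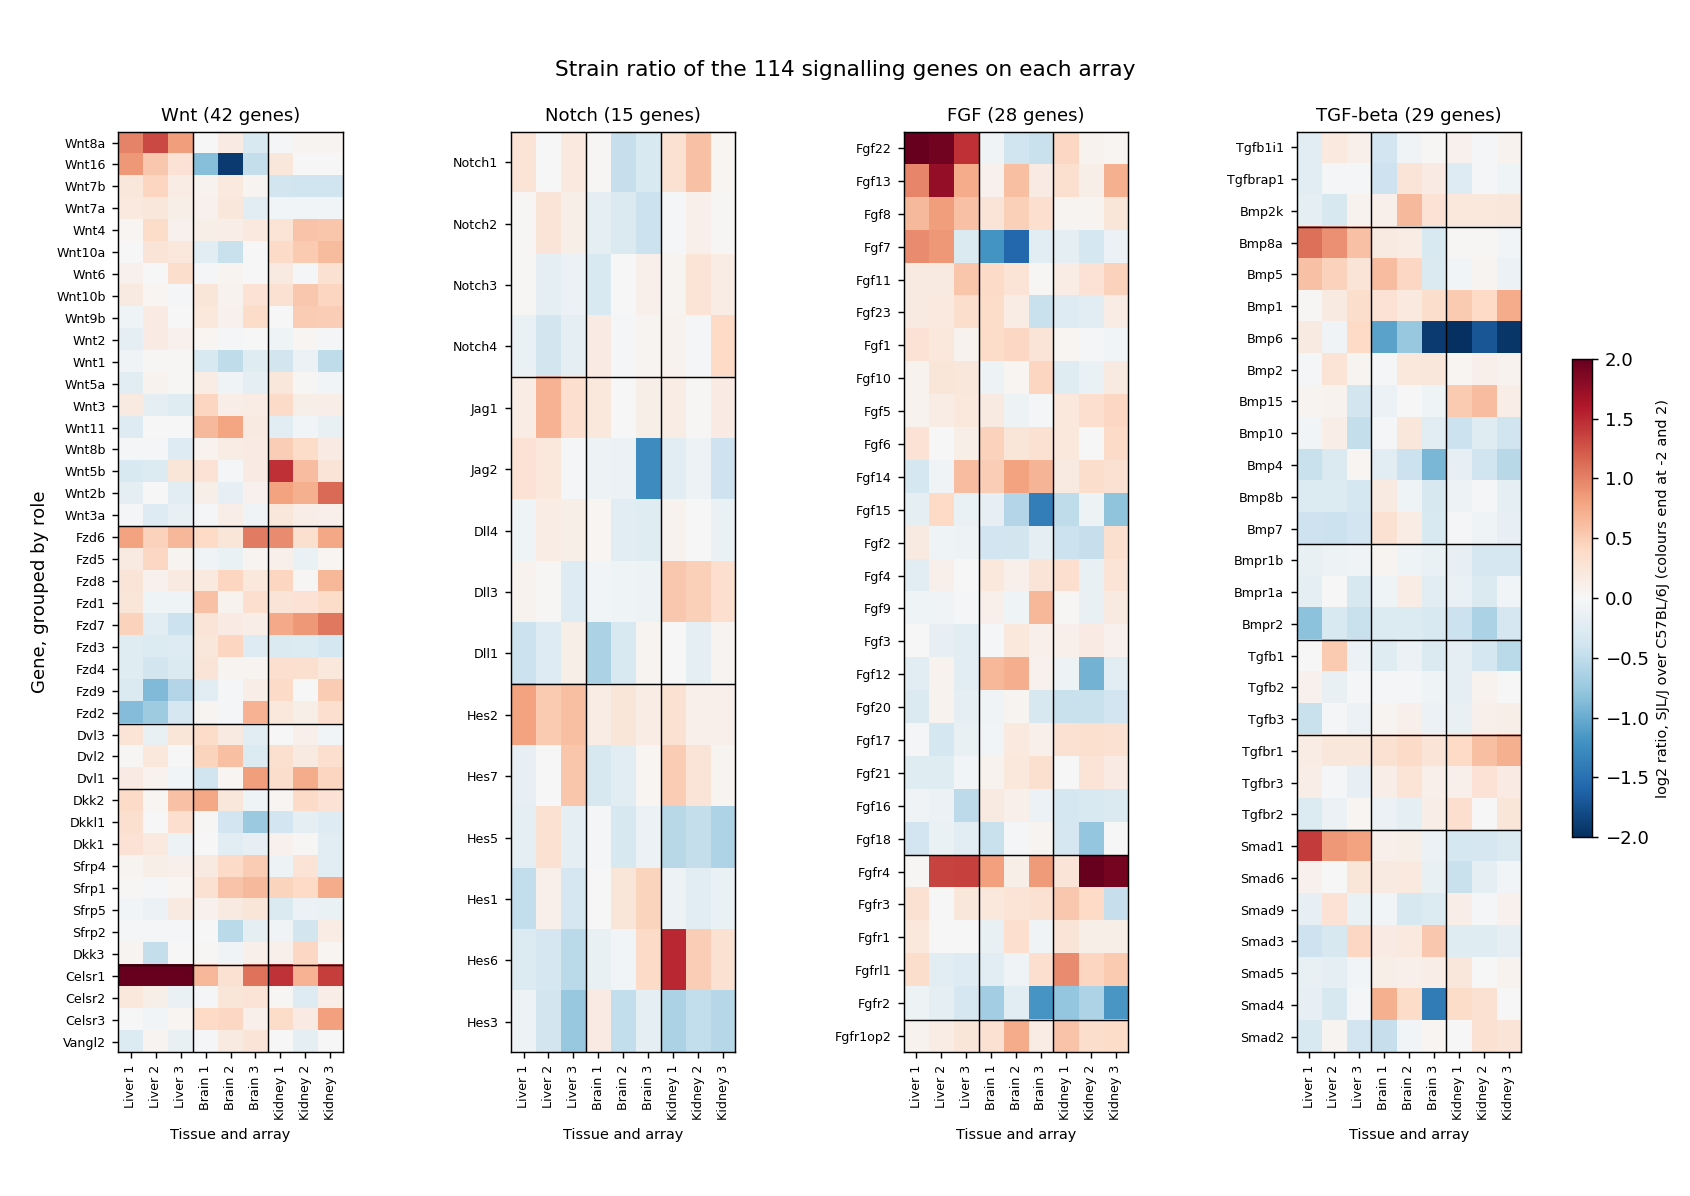
Heat map of the log2 strain ratio (SJL/J over C57BL/6J) of the 114 genes on each array, with 1 panel per pathway, genes grouped by role and arrays in columns by tissue. Most cells are pale, and Celsr1, Fgf22 and Wnt8a in liver, Bmp6 in brain and kidney, and Fgfr4 on 2 kidney arrays stand out.

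In liver, the called genes with the highest ratios came from different pathways: a planar polarity receptor, FGF family members, a Wnt ligand, a BMP ligand and a Smad. Celsr1, an adhesion receptor of planar cell polarity, had ratios of 2.55, 2.87 and 2.49 in liver, 0.66, 0.30 and 1.09 in brain, and 1.45, 0.70 and 1.38 in kidney. The liver arrays all lay above the brain and kidney arrays, and all 9 arrays lay above 0. The mean was 2.64 ± 0.20 in liver (SD, n = 3 arrays; 6.22-fold; adjusted p = 1.32e-06, limma), 0.68 ± 0.39 in brain (adjusted p = 0.0181) and 1.18 ± 0.42 in kidney (adjusted p = 0.000571). The liver ratio exceeded that of brain by 1.95 (adjusted p = 0.000445) and that of kidney by 1.46 (adjusted p = 0.00223). The brain call was lost without brain array 1 or brain array 3 (adjusted p = 0.0679 and 0.0793). Among the 48 spots that held the same place in the 48 blocks of the array, the Celsr1 spot ranked highest in liver, where the other 47 had a median of -0.00 and a highest value of 0.92. The next measured genes on either side of Celsr1 in the reference, Trmu and 4930543I03Rik, had liver ratios of -0.18 and 0.02, and neither passed.

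Fgf22, an FGF ligand known from synapse formation in brain, had ratios of 2.29, 1.93 and 1.46 in liver, -0.08, -0.41 and -0.45 in brain, and 0.42, 0.07 and 0.04 in kidney. Its liver arrays did not overlap with those of the other tissues. The liver mean was 1.89 ± 0.42 (SD, n = 3 arrays; 3.72-fold; adjusted p = 6.46e-06), above brain by 2.21 (adjusted p = 7.17e-05) and above kidney by 1.72 (adjusted p = 0.000389). Smad1, a transducer that BMP receptors phosphorylate, had 1.40, 0.86 and 0.80 in liver, 0.10, 0.11 and -0.11 in brain, and -0.35, -0.34 and -0.28 in kidney. The tissues did not overlap here either, with liver highest and kidney lowest. The liver mean was 1.02 ± 0.33 (SD, n = 3 arrays; 2.03-fold; adjusted p = 0.000113), and the kidney mean of -0.33 did not pass (adjusted p = 0.0558). Bmp8a, a BMP ligand known from germ cells and brown fat, had 1.10, 0.91 and 0.59 in liver, 0.18, 0.15 and -0.31 in brain, and 0.02, 0.02 and -0.05 in kidney. Its liver arrays again lay above all others, with a mean of 0.87 ± 0.25 (SD, n = 3 arrays; adjusted p = 0.000449). Differences of liver from brain and from kidney passed for both Smad1 (0.99 and 1.35) and Bmp8a (0.86 and 0.87).

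Promoters are shown for these 3 genes because all were higher in liver and stayed called there under every alternative run. The sequences are the 250 bases before the transcript start in the RefSeq annotation of the C57BL/6J reference, build GRCm38.p6, written 5′ to 3′ in the direction of the gene. Capitals mark the ETS motif letters CCGGAA. Positions were chr10:79754859-79755108, plus strand for Fgf22, chr8:79399429-79399678, minus strand for Smad1, and chr4:123343253-123343502, minus strand for Bmp8a.
Fgf22: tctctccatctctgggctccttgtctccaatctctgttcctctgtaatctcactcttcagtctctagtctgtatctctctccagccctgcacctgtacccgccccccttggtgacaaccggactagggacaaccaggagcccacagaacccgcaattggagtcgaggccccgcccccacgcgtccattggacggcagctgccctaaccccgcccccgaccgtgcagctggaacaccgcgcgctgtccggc
Smad1: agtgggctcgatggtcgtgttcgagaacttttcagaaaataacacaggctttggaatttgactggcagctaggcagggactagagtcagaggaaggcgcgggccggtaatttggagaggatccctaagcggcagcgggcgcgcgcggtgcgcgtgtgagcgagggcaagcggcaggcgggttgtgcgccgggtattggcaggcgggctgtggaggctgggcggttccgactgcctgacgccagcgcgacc
Bmp8a: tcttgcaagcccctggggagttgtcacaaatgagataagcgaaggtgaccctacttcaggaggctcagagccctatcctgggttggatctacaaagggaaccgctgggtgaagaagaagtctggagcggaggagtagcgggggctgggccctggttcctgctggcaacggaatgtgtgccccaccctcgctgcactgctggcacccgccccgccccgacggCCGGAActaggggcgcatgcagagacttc

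Of these 3 windows, the Bmp8a promoter held 1 motif match, an ETS match that starts at base 222, and the other 2 held none of the 4 motifs searched on both strands. The motifs were CTTTGAT for TCF/LEF, the nuclear partners of beta-catenin, GTGGGAA for RBPJ, the Notch partner on DNA, CAGACA for SMAD, and CCGGAA for ETS factors, which act after FGF receptors. RefSeq promoters were found for 84 of the 114 genes (103 windows). TCF/LEF letters occurred in 3 of these windows (2.91%), beside 3.21% of 32851 mouse promoters, and RBPJ letters in 6 (5.83%), beside 5.42%. SMAD letters occurred in 17 (16.5%), beside 17.13%, and ETS letters in 10 (9.71%), beside 12.03%. The median GC content was 64.0% in the members' windows and 52.4% in all promoters. A match describes the letters of the reference and is not evidence of a bound site.

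Wnt8a, a Wnt ligand of the early embryo, had liver ratios of 0.99, 1.32 and 0.83, against values between -0.30 and 0.17 on the 6 other arrays. Its liver mean was 1.05 ± 0.25 (SD, n = 3 arrays; adjusted p = 9.13e-05). Fgf13, an intracellular FGF homologous factor that binds sodium channels, had 0.97, 1.76 and 0.74 in liver, 0.08, 0.61 and 0.17 in brain, and 0.31, 0.11 and 0.72 in kidney. All of its arrays lay above 0, and only the liver mean of 1.16 ± 0.54 passed (SD, n = 3 arrays; adjusted p = 0.00108). The tissue differences of Fgf13 did not pass. Of the next measured genes beside Fgf13, 4930550L24Rik had 1.25 in liver (adjusted p = 0.0001) and F9 had -0.14 (adjusted p = 0.597). Fgf8, a ligand of embryonic patterning centres, had a liver mean of 0.69 ± 0.13 (adjusted p = 0.000324) and a brain mean of 0.36 ± 0.11 (adjusted p = 0.0222), against 0.12 ± 0.11 in kidney (SD, n = 3 arrays each). The brain mean of Fgf8 was 0.17 with row and column medians subtracted (adjusted p = 0.185). Hes2, a Hes repressor, had 0.81, 0.53 and 0.60 in liver, and its mean of 0.65 ± 0.15 passed there alone (SD, n = 3 arrays; adjusted p = 0.000499). Jag1, the Notch ligand known for bile duct formation, was higher by 0.39 ± 0.28 (adjusted p = 0.0214), with a single array at 0.69 and the others at 0.14 and 0.34, and had 0.24 without liver array 2 (adjusted p = 0.169).

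The members lower in the liver of SJL/J were receptors and a BMP ligand. Fzd2, Fzd9 and Fzd4, all Frizzled receptors, had means of -0.64 ± 0.28, -0.58 ± 0.30 and -0.30 ± 0.06 (SD, n = 3 arrays; adjusted p = 0.00805, 0.00869 and 0.0253). Of the 9 measured Frizzled receptors these 3 fell, Fzd6 rose and 5 did not pass in liver. Over all genes, 14.4% were called lower in liver and 10.1% higher. The split of higher and lower Frizzled receptors was 0 and 1 without liver array 1, 1 and 0 without liver array 2, and 0 and 2 without liver array 3. Bmpr2, the type II BMP receptor, fell by 0.52 in liver (adjusted p = 0.0049). Of its 2 liver probes, the one at -0.77 passed (adjusted p = 0.0156) and the one at -0.28 did not (adjusted p = 0.155). Bmp7, a BMP ligand of kidney development, had -0.41, -0.43 and -0.38 on the liver arrays (adjusted p = 0.021). The 47 other spots at the same place as Bmp7 had a liver median of -0.40. With the medians of same-place spots removed, the Bmp7 ratio was 0.03 (adjusted p = 0.91).

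**Figure D2:**
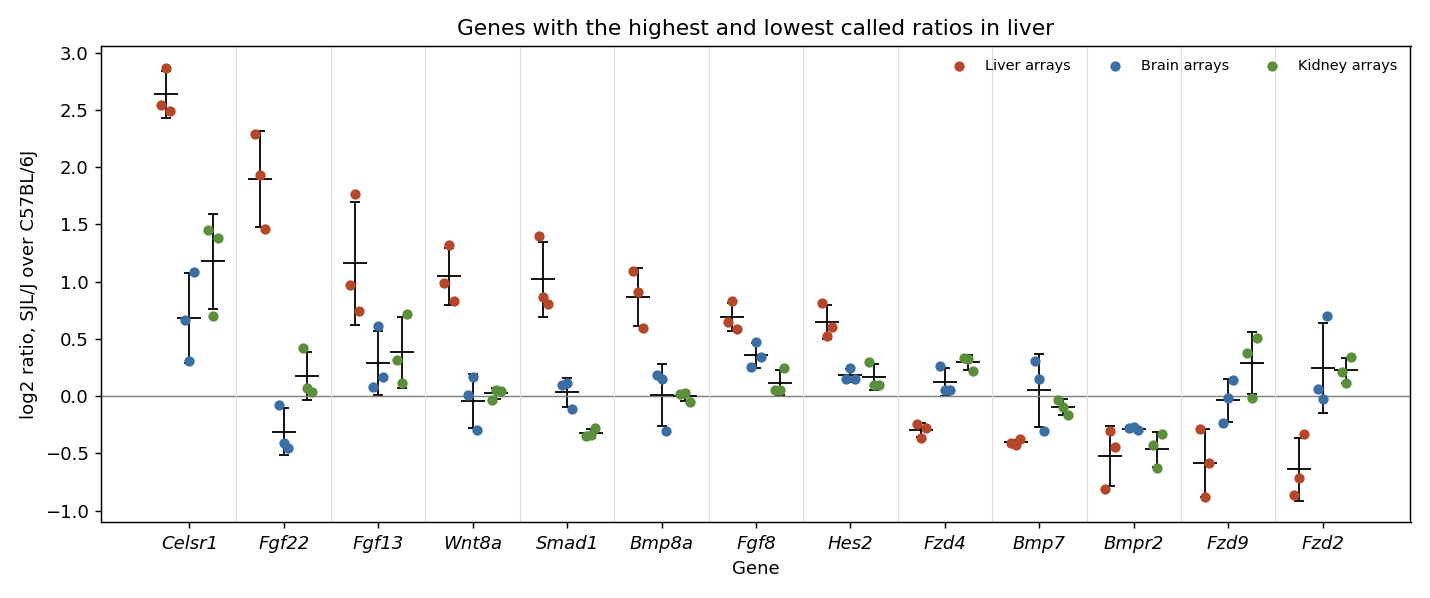
Log2 strain ratio (SJL/J over C57BL/6J) of the 8 genes with the highest and the 5 with the lowest called ratios in liver, with 1 point per array, colours for tissues, and bars for the mean and SD of 3 arrays. The Celsr1, Fgf22, Smad1, Wnt8a and Bmp8a liver points lie above all brain and kidney points of the same gene.

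In kidney, the Wnt family had more higher than lower calls: of its 42 genes 14 rose and 2 fell, 26 not passing, with a median ratio of 0.20, while 13.5% of all genes were called higher and their median was 0.03. The count of higher Wnt genes was 8 without kidney array 1, 10 without kidney array 2 and 9 without kidney array 3. It was 9, with 1 lower, after row and column medians were subtracted, when 9.09% of all genes were called higher. Among Wnt ligands 7 of 18 rose and 2 fell, and among Frizzled receptors 4 of 9 rose and none fell. The count of higher Frizzled receptors was 1 without kidney array 1, 1 without kidney array 3 and 1 with row and column medians subtracted. Wnt2b, a ligand of canonical signalling, had -0.20, 0.01 and -0.21 in liver, 0.12, -0.17 and 0.09 in brain, and 0.81, 0.72 and 1.13 in kidney. The kidney arrays lay above all others, with a mean of 0.89 ± 0.22 (SD, n = 3 arrays; adjusted p = 0.000187) that was 0.58 with row and column medians subtracted (adjusted p = 0.0023). The next measured genes beside Wnt2b, Capza1 and Cttnbp2nl, also passed in kidney, at 0.74 and 0.32 (adjusted p = 0.0044 and 0.0412). Fzd7, a Frizzled receptor, had 0.46, -0.21 and -0.43 in liver, 0.26, 0.17 and 0.14 in brain, and 0.76, 0.87 and 1.05 in kidney. Its kidney arrays also lay above all others, with a mean of 0.89 ± 0.15 (SD, n = 3 arrays; adjusted p = 0.00118).

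Promoters of Wnt2b and Fzd7 are shown because this ligand and this receptor were higher in kidney under every alternative run. The windows are chr3:104961710-104961959, minus strand for Wnt2b and chr1:59481897-59482146, plus strand for Fzd7 (GRCm38.p6, RefSeq), 250 bases before the start. Neither held any of the 4 motifs, so no letters are in capitals.
Wnt2b: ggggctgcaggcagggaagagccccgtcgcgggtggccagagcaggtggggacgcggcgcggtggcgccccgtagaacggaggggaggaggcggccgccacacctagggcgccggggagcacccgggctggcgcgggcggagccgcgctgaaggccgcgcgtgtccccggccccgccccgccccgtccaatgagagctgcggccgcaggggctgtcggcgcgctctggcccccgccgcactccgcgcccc
Fzd7: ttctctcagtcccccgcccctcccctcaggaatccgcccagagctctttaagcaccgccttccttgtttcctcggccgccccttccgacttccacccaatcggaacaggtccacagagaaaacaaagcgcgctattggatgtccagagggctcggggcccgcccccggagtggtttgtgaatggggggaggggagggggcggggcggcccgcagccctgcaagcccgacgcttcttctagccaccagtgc

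Other Wnt ligands that rose in kidney were Wnt10a (0.52 ± 0.12; adjusted p = 0.00437), Wnt4, which drives tubule formation in the embryonic kidney (0.47 ± 0.17; adjusted p = 0.00537), and Wnt10b (0.42 ± 0.12; adjusted p = 0.00625; SD, n = 3 arrays each). Wnt8b and Wnt9b, a ligand of the ureteric bud, each had 0.34. With row and column medians subtracted, Wnt4 had 0.28 (adjusted p = 0.0377), while Wnt10b (0.11; adjusted p = 0.43) and Wnt8b (0.21; adjusted p = 0.144) did not pass. Wnt9b lost its call in 12 of 18 alternative fits and had 0.19 with same-place medians removed (adjusted p = 0.318). Wnt5b, a ligand of non-canonical signalling, had 1.47 on kidney array 1, 0.62 on array 2 and 0.26 on array 3. Its mean of 0.78 (adjusted p = 0.0117) was 0.44 without kidney array 1 (adjusted p = 0.0951). Wnt1 and Wnt7b fell. Wnt1, the next measured gene to Wnt10b on the chromosome, had -0.36 in brain (adjusted p = 0.0288) and -0.33 in kidney (adjusted p = 0.0267). Wnt10b had 0.20 in brain and 0.42 in kidney. The Wnt1 brain call was lost without brain array 1 or 2 (adjusted p = 0.073 and 0.176). Its kidney call was lost without kidney array 1 or 3 (adjusted p = 0.129 and 0.184). Sfrp1, a secreted protein that binds Wnts, had 0.02 ± 0.03 in liver and was higher in brain (0.50 ± 0.18; adjusted p = 0.00706) and in kidney (0.53 ± 0.19; adjusted p = 0.00308; SD, n = 3 arrays each). Its 2 probes gave 0.48 and 0.52 in brain and 0.49 and 0.58 in kidney. The Sfrp1 brain mean was 0.30 with row and column medians subtracted (adjusted p = 0.0354) and 0.47 without brain array 2 (adjusted p = 0.0528).

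Wnt7b and Fzd4 passed in opposite directions in liver and kidney. Wnt7b, a ligand of the renal collecting system, had 0.22, 0.44 and 0.15 in liver and -0.37, -0.40 and -0.40 in kidney. The liver minus kidney difference was 0.66 (adjusted p = 0.00481). It was 0.40 (adjusted p = 0.0399) after row and column medians were subtracted, when the kidney ratio was -0.03 (adjusted p = 0.848). The liver ratio of Wnt7b, 0.27 (adjusted p = 0.0422), did not pass with the replicate block (adjusted p = 0.0627) or without any single liver array (adjusted p from 0.0685 to 0.239). Fzd4, a receptor of the retinal and brain vasculature, had -0.25, -0.36 and -0.28 in liver and 0.34, 0.33 and 0.22 in kidney, with a difference of -0.59 (adjusted p = 0.00746). That difference was kept under every alternative run, but the liver call was lost without any single liver array (adjusted p from 0.0753 to 0.121) and the kidney call without any single kidney array (adjusted p from 0.0654 to 0.132). Neither gene's liver and kidney arrays overlapped. Fzd6, a Frizzled receptor of hair and tissue polarity, passed as higher in all tissues, with 0.64 ± 0.17 in liver, 0.56 ± 0.43 in brain and 0.68 ± 0.32 in kidney (SD, n = 3 arrays each). Its brain ratio was 0.32 without brain array 3 (adjusted p = 0.15), and the liver and kidney calls were lost without array 1 or array 3 of their tissue, at adjusted p from 0.0607 to 0.0887.

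For Notch, 4 of 15 genes passed in kidney, 2 higher and 2 lower, beside 13.5% of all genes called higher and 13.9% lower. None of the 4 Notch receptors passed there (range 0.03 to 0.305). Hes6, which opposes Hes1, had 1.50, 0.49 and 0.31 in kidney, and its mean of 0.77 (adjusted p = 0.0133) was 0.40 without kidney array 1 (adjusted p = 0.0967). Dll3, a Delta homologue, had 0.08, 0.02 and -0.26 in liver, -0.06, -0.09 and -0.11 in brain, and 0.54, 0.48 and 0.34 in kidney. Only the kidney arrays were high, with a mean of 0.45 ± 0.10 (SD, n = 3 arrays; adjusted p = 0.00462). Hes3 and Hes5, Hes repressors of neural precursor cells, fell by 0.57 and 0.55 in kidney (adjusted p = 0.012 and 0.00474). With row and column medians subtracted they had -0.16 and -0.22 and did not pass (adjusted p = 0.333 and 0.193). Notch2 was the only Notch receptor called, at -0.30 ± 0.12 in brain (SD, n = 3 arrays; adjusted p = 0.0392), and this call was lost with the replicate block (adjusted p = 0.0655) and without any single brain array (adjusted p from 0.0566 to 0.131).

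For FGF in kidney, 5 of 28 genes rose and 3 fell, beside 13.5% of all genes called higher and 13.9% lower. The FGF split was 1 and 1 without kidney array 1 or 2, and 1 and 5 after same-place medians were removed. Fgfr4, the main FGF receptor of hepatocytes, had 0.03, 1.36 and 1.36 in liver, 0.82, 0.12 and 0.86 in brain, and 0.26, 2.25 and 1.91 in kidney. Arrays of the same tissue differed by more than 1 log2 unit in liver and kidney. The kidney mean of 1.47 ± 1.06 (SD, n = 3 arrays; adjusted p = 0.00991) was 1.08 without kidney array 2 (adjusted p = 0.0902) and 1.25 without kidney array 3 (adjusted p = 0.0777). The liver mean of 0.92 did not pass (adjusted p = 0.0757). Of the next measured genes beside Fgfr4, Nsd1 had 0.91 in kidney (adjusted p = 0.001) and Zfp346 had 0.13 (adjusted p = 0.279). Fgfr2, a receptor with splice forms for epithelium and mesenchyme, had -0.10, -0.20 and -0.34 in liver, -0.70, -0.22 and -1.18 in brain, and -0.78, -0.61 and -1.16 in kidney. The means were -0.21 in liver (adjusted p = 0.365), -0.70 in brain (adjusted p = 0.0135) and -0.85 in kidney (adjusted p = 0.00295), so that it fell in brain and kidney. The brain mean of Fgfr2 was -0.46 without brain array 3 (adjusted p = 0.0551). Fgfrl1, an FGF receptor without a kinase domain, rose by 0.63 in kidney (adjusted p = 0.0105), and Fgf20 fell by 0.42 (adjusted p = 0.0105). Fgfrl1 had 0.40 with same-place medians removed (adjusted p = 0.065) and 0.47 without kidney array 1 (adjusted p = 0.0977), and Fgf20 lost its call without kidney array 1 or 2 (adjusted p = 0.065 and 0.0597).

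Bmp6, the BMP ligand that reports iron to the liver, had 0.17, -0.07 and 0.40 in liver, -1.06, -0.76 and -1.92 in brain, and -2.07, -1.70 and -1.94 in kidney. Its brain and kidney means were the lowest of all 114 genes. The means were -1.25 ± 0.60 in brain (adjusted p = 0.00122) and -1.90 ± 0.19 in kidney (SD, n = 3 arrays each; adjusted p = 3.98e-05). Its single spot sits at a place where the 47 spots of the other blocks had medians of -0.18 in liver, -1.13 in brain and -1.69 in kidney. All 48 spots at this place lay below 0 in brain and in kidney, and Bmp6 ranked 18th and 15th from the lowest. With same-place medians removed, Bmp6 had -0.13 in brain (adjusted p = 0.547) and -0.18 in kidney (adjusted p = 0.371). With row and column medians subtracted instead, it had -0.55 in brain (adjusted p = 0.0962) and -0.77 in kidney, where the call was kept (adjusted p = 0.0239). No other member probe sat at a place whose median was beyond 0.5 in any tissue. The ratio of Bmp6 therefore did not stand out from unrelated genes printed at the same place.

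**Figure D3:**
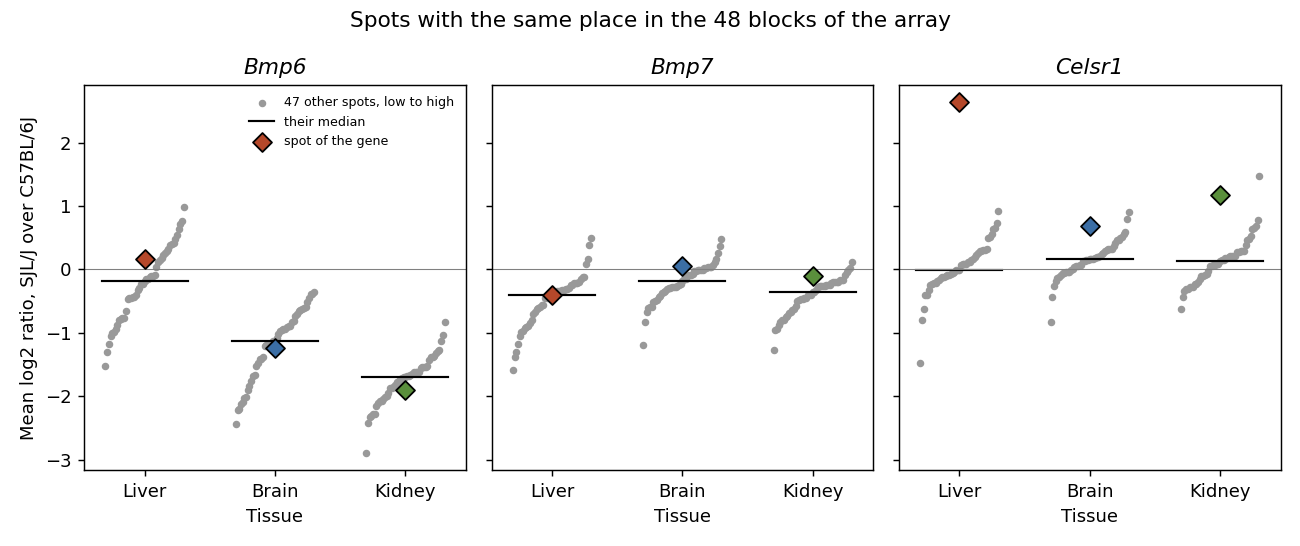
Mean log2 strain ratio (SJL/J over C57BL/6J) by tissue of the Bmp6, Bmp7 and Celsr1 spots (diamonds) and of the 47 other spots that hold the same place in the other blocks (grey points, sorted low to high, with their median as a line). Bmp6 and Bmp7 lie among the spots of their place, whereas Celsr1 in liver lies above all of them.

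The TGF-beta receptors and remaining BMP genes moved less. Tgfbr1, the type I TGF-beta receptor, had 0.14, 0.22 and 0.23 in liver, 0.30, 0.39 and 0.26 in brain, and 0.39, 0.61 and 0.72 in kidney. Its mean of 0.20 in liver did not pass (adjusted p = 0.129), and its means of 0.32 in brain (adjusted p = 0.033) and 0.57 in kidney (adjusted p = 0.00104) did. The brain value was 0.19 with row and column medians subtracted (adjusted p = 0.166). The protease Bmp1 rose by 0.55 ± 0.18 in kidney (SD, n = 3 arrays; adjusted p = 0.00217). Bmpr2 had a mean of -0.46 in kidney (adjusted p = 0.009), but its 2 probes differed: -0.78 at the probe whose number is a multiple of 8 and -0.15 at the other. In brain the same probes gave 0.14 and -0.71. Fgf1 had probes that passed in opposite directions in kidney, 0.28 (adjusted p = 0.0405) and -0.31 (adjusted p = 0.0322), so that its averaged ratio of -0.01 described neither. Of the 2 probes of Bmp2 in liver (-0.16 and 0.35), of Fgf11 in kidney (0.45 and 0.14) and of Tgfbr2 in kidney (-0.04 and 0.44), 1 of each pair passed.

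**Figure D4:**
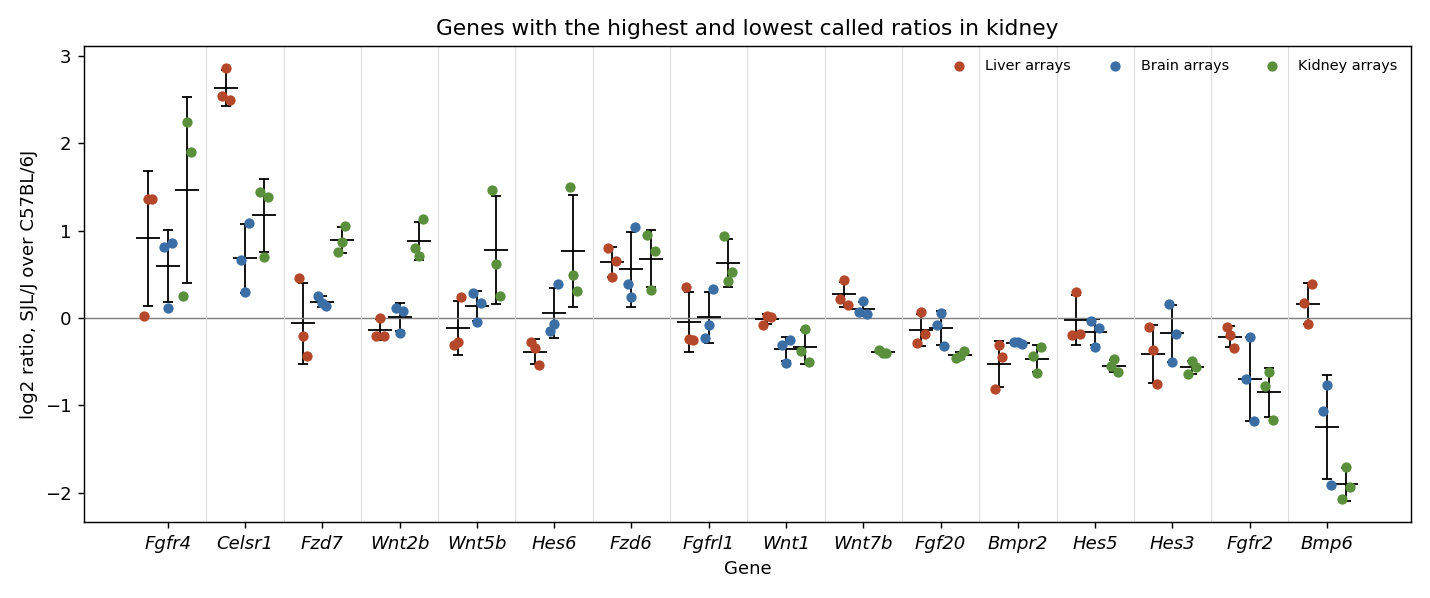
Log2 strain ratio (SJL/J over C57BL/6J) of the 8 genes with the highest and the 8 with the lowest called ratios in kidney, with 1 point per array, colours for tissues, and bars for the mean and SD of 3 arrays. Kidney points of Fzd7 and Wnt2b lie close together, whereas those of Fgfr4 run between 0.26 and 2.25.

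In brain the lowest ratios belonged to ligands, and the arrays varied most: the median SD over 3 arrays among members was 0.16 in liver, 0.18 in brain and 0.14 in kidney. Wnt16, a Wnt ligand known from bone, had 0.87, 0.55 and 0.29 in liver, -0.85, -1.91 and -0.48 in brain, and 0.23, 0.01 and -0.01 in kidney. Its brain arrays lay below all others, with a mean of -1.08 (adjusted p = 0.00661) that was -0.67 without brain array 2. Fgf7, a growth factor of epithelia, had 0.95, 0.87 and -0.28 in liver and -1.19, -1.57 and -0.22 in brain, and the 2 tissues overlapped through array 3 of each. The brain mean of -0.99 (adjusted p = 0.0216) did not pass without brain array 1 or 2 (adjusted p = 0.107 and 0.166). Fgf15, a hormone of the FGF family, had a mean of -0.72 (adjusted p = 0.0354), and -0.38 (adjusted p = 0.17) without brain array 3. Bmp4, a BMP ligand of embryonic patterning, had -0.52 (adjusted p = 0.0282), and -0.32 (adjusted p = 0.124) without that array.

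Among members higher in brain, Fgf14, an intracellular FGF that binds neuronal sodium channels, had -0.35, -0.07 and 0.62 in liver, 0.49, 0.80 and 0.69 in brain, and 0.18, 0.35 and 0.31 in kidney. The brain mean was 0.66 ± 0.16 (SD, n = 3 arrays; adjusted p = 0.0135), and its range overlapped that of liver. Wnt11, a ligand of cell movement and ureteric branching, had -0.25, 0.00 and -0.00 in liver, 0.65, 0.78 and 0.18 in brain, and -0.22, -0.05 and -0.14 in kidney. All brain arrays lay above the others, and the mean was 0.54 ± 0.31 (SD, n = 3 arrays; adjusted p = 0.0103). Neither Fgf14 (0.59; adjusted p = 0.0927) nor Wnt11 (0.42; adjusted p = 0.0887) passed without brain array 2. Wnt11 also did not pass without brain array 1 (adjusted p = 0.0603). Fgf1 (0.35), Fgf6 (0.34), Sfrp4 (0.36) and Fgfr1op2 (0.40) also passed as higher in brain. Without brain array 2 none of these 4 passed, with 0.32 for Fgf1 (adjusted p = 0.101), 0.39 for Fgf6 (adjusted p = 0.0915), 0.35 for Sfrp4 (adjusted p = 0.161) and 0.22 for Fgfr1op2 (adjusted p = 0.25).

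Differences between tissues were tested as contrasts. Liver minus kidney passed for 22 members, 10 positive and 12 negative, beside 19.5% of all genes (8.52% positive and 11% negative). Liver minus brain passed for 14, 10 positive and 4 negative, beside 11.6% (5.61% and 6%). Brain minus kidney passed for 7, 3 positive and 4 negative, beside 5.47% (2.5% and 2.97%). With same-place medians removed the liver minus kidney split was 13 positive and 6 negative, and after row and column medians were subtracted the liver minus brain split was 11 positive and 2 negative. The liver minus brain count was 8 without brain array 2, 7 without liver array 1 and 8 without liver array 2, and the brain minus kidney count ranged from 1 to 13 when single arrays were left out. All-gene shares were 7.27%, 6.58% and 7.33% for these liver minus brain fits, and 1.44% to 15.4% for brain minus kidney. The highest brain minus kidney values, 13 members and 15.4%, came without brain array 3. The F-test of tissue dependence passed for 22 members, beside 22.1%. Negative liver minus kidney differences included Wnt2b (-1.02; adjusted p = 0.00131), Fzd7 (-0.95; adjusted p = 0.00897), Fzd9 (-0.87; adjusted p = 0.00969) and Fzd2 (-0.86; adjusted p = 0.0147).

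**Figure D5:**
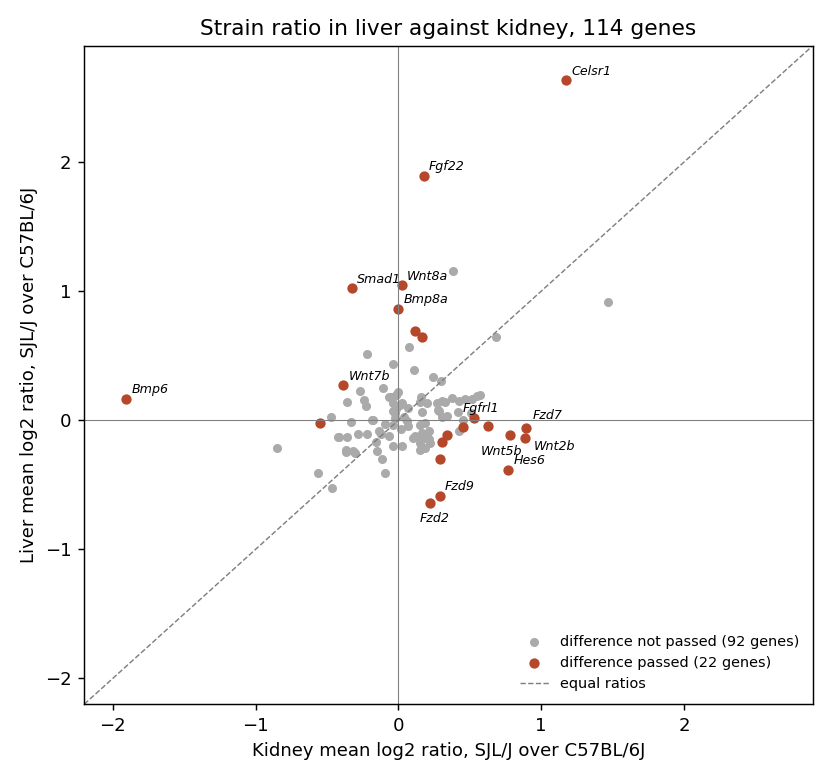
Mean log2 strain ratio (SJL/J over C57BL/6J) in liver (vertical) against kidney (horizontal) for the 114 genes, 3 arrays each, with the 22 genes whose difference passed in red and the larger of these named. Celsr1, Fgf22, Smad1, Wnt8a and Bmp8a lie above the line of equal ratios, and Wnt2b, Fzd7 and Hes6 lie below it.

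With each tissue counted once, 0 members passed for a ratio shared by the tissues (limma on 3 tissue means), beside 0.709% of all genes (0.0397% higher and 0.669% lower). At an unadjusted p of 0.05, 17 members passed, 14.9% of them, beside 15.9% of all genes. Fzd6 came nearest, with a shared ratio of 0.63 (adjusted p = 0.0829). Of the 19 members called in brain, 8 (42.1%) were called in kidney with the same sign, which is 23.5% of the kidney calls. Over all genes the same shares were 40.9% and 25.6%, close to those of the members. Liver shared 5 calls with kidney, 31.2% of the liver calls and 14.7% of the kidney calls, and 3 of the 5 had the same sign. Over all genes 32.4% of the liver calls were called in kidney, 28.9% of the kidney calls. Of those 1197 shared calls, 967 had the same sign. Liver shared 3 calls with brain, all of the same sign, which is 18.8% of the liver calls and 15.8% of the brain calls. For all genes these liver and brain shares were 25.2% and 36.0%, and 835 of the 933 shared calls had the same sign. Across the 114 members, which share arrays, Pearson's r of the mean ratios was 0.57 between brain and kidney, 0.25 between liver and kidney and 0.12 between liver and brain. Over all 15096 genes the same values were 0.54, 0.29 and 0.35. The brain means include brain array 3, which correlated more with the kidney arrays than with the other brain arrays. Bmp6, with the lowest member means in brain and kidney, is part of the member correlations and of the 8 shared calls. Other spots at its place on the array were low there too, and the values without Bmp6 were not computed.

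Other genes of the pathways were counted from lists of receptors, modulators and targets outside the families above. In liver, of 40 measured Wnt pathway genes 6 rose and 8 fell, of 27 Notch genes 2 and 3, of 22 FGF genes 1 and 3, and of 49 TGF-beta and BMP genes 4 and 6. In brain the counts were 3 and 2 for Wnt, 4 and 1 for Notch, 2 and 0 for FGF, and 3 and 1 for TGF-beta and BMP. In kidney they were 6 and 3 for Wnt, 3 and 3 for Notch, 2 and 4 for FGF, and 11 and 3 for TGF-beta and BMP. These counts stand beside 10.1% of all genes called higher and 14.4% lower in liver, 7.55% and 9.61% in brain, and 13.5% and 13.9% in kidney, and most are near these shares. Medians of these lists ran from -0.16 to 0.09.

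Among Wnt modulators, Lgr5, the R-spondin receptor of stem cells and of hepatocytes near the central vein, had -0.65, -1.13 and -1.76 in liver, and its mean of -1.18 ± 0.56 passed (SD, n = 3 arrays; adjusted p = 0.000356). The R-spondins Rspo4 and Rspo2, which strengthen Wnt signals, had means of 1.09 and 1.06 in liver, where a single array decided both (0.65 without liver array 3 for Rspo4, 0.67 without liver array 2 for Rspo2). The Wnt co-receptor Lrp6 had -1.06 in kidney (adjusted p = 0.000282) and -0.66 in brain (adjusted p = 0.00778). With row and column medians subtracted Lrp6 had -0.01 in kidney (adjusted p = 0.957) and 0.35 in brain (adjusted p = 0.0704).

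Nrarp, a target and inhibitor of Notch, rose by 0.65 ± 0.11 in liver (SD, n = 3 arrays; adjusted p = 0.00197), where Spen, a corepressor of RBPJ, rose by 0.88 (adjusted p = 0.0026). With row and column medians subtracted Nrarp had 0.14 (adjusted p = 0.402), and Spen kept its call. Dtx3, a member of the Deltex family, had 0.59 in brain (adjusted p = 0.028), and 0.39 without brain array 2 (adjusted p = 0.207). Numbl, a Numb-like Notch inhibitor, had -0.26, -1.69 and -0.35 in kidney, so its mean of -0.77 rested on array 2. Etv1, an ETS factor induced by FGF, had 0.93, 0.94 and 0.44 in brain and -0.63, -0.49 and -0.46 in kidney. The 2 tissues did not overlap, and brain minus kidney was 1.30 (adjusted p = 0.00295). In kidney the FGF antagonist Spry4 fell by 0.51 (adjusted p = 0.0104), Flrt3, a partner of FGF receptors, fell by 0.49 (adjusted p = 0.0109), and the exchange factor Sos1 rose by 0.46 (adjusted p = 0.015). With row and column medians subtracted none of the 3 passed, at -0.06 for Spry4 (adjusted p = 0.752), -0.10 for Flrt3 (adjusted p = 0.628) and 0.30 for Sos1 (adjusted p = 0.0813).

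Inha, the alpha subunit of inhibin, had 1.81, 1.44 and 2.14 in liver, against values from -0.12 to 1.68 in brain and kidney, and its liver mean of 1.79 ± 0.35 passed (SD, n = 3 arrays; adjusted p = 0.000261). Its kidney mean of 0.87 was 0.46 without kidney array 2 (adjusted p = 0.141). Gdf1, a ligand of left-right patterning, had -2.61, -0.26 and -1.47 in liver, with a mean of -1.45 (adjusted p = 0.00525) that was -0.86 without liver array 1. Fstl3, an activin antagonist, is the next measured gene after Fgf22 on the chromosome and had 0.90, 2.32 and 0.40 in liver. Its mean of 1.21 (adjusted p = 0.0178) was 0.65 without liver array 2 (adjusted p = 0.145). Id1, a target of BMP receptors and Smad1, had 0.16, 0.02 and 0.11 in liver, against 0.27, 1.26 and 1.28 in kidney (mean 0.94; adjusted p = 0.00211).

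Marker lists of cell types held calls in both directions in several cases. In liver, 4 of 11 hepatocyte markers rose and 2 fell (range -2.73 to 1.14), 2 of 11 macrophage markers rose and none fell, and 1 of 13 markers of fibroblasts, stellate cells and pericytes rose and 2 fell. In kidney, 2 of 11 endothelial markers rose and none fell (median 0.22, range -0.21 to 0.62), and 2 of 8 proximal tubule markers rose and 1 fell (range -0.85 to 0.70). In brain, 1 of 9 neuronal markers rose and 1 fell (range -0.38 to 0.94), and 2 of 7 oligodendrocyte markers fell and none rose. Over all genes, 10.1% were called higher and 14.4% lower in liver, 13.5% and 13.9% in kidney, and 7.55% and 9.61% in brain, so counts of 1 or 2 in a list of this size are near the background. The part of cell composition in the ratios of the signalling genes was not tested.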

How the data were processed

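RNA from SJL/J and C57BL/6J pools was compared on 9 two-colour arrays, 3 each for liver, brain and kidney. The deposited table held 1 log2 ratio per spot and array (23040 spots, 0 missing values), and the authors used R 2.0.0 and limma, per the submitters' processing notes. The log base is limma's convention, and how background and each array's scale were treated is not stated in the labels. The sorted values of all 9 columns were identical, so the authors had equalised the distributions (median 0.01, range -3.91 to 5.09). For kidney and liver arrays the titles were followed, since their channel 1 tissue reads brain. Intensities were not used here, so no dim spot was filtered, and the number of arrays limits the precision.

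Probes were named from the platform annotation (16874 with a single symbol, 134 with several, 6032 unnamed here). Gene identifiers of 122 of 122 member probes matched the reference gene table, with 0 changed symbols. Probes of a gene were averaged. All 15096 genes were fitted by limma 3.58.1 in R 4.3.3 (lmFit, eBayes; 1 coefficient per tissue; 6 residual and 5.17 prior degrees of freedom), two-sided, with Benjamini-Hochberg adjustment over all genes and a threshold of 0.05. The fit was tested on simulated data. The spots were taken as 48 blocks of 480 consecutive numbers in lines of 24, since low ratios were known at multiples of 8. Named genes were, per tissue, the 8 highest and 8 lowest called means with the same sign on all 3 arrays, genes called in all tissues or in opposite directions, the 6 largest called differences per pair of tissues, the 5 genes whose probes differed most and up to 4 genes of each other pathway list. Genes named beside a count, such as further called Wnt ligands, and the promoters shown, were chosen after their values were seen. The members, lists and rules were chosen with earlier results of these data known. Replicate numbers did not pair the arrays (correlations of deviations from -0.08 to 0.05). Alternatives covered probe averaging, multiples of 8, spot position, centring, array weights, the prior, the replicate block, the threshold and single arrays.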

Additional observations from a re-analysis of the deposited data

Results flagged for a closer look

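Strain ratios of named members that differed between tissues by limma's contrast are listed here, each as a log2 difference that passed the adjusted threshold. Liver minus kidney differed most for Bmp6 (2.07), Fgf22 (1.72), Celsr1 (1.46), Smad1 (1.35), Hes6 (-1.15) and Wnt8a (1.02). Liver minus brain differed most for Fgf22 (2.2), Celsr1 (1.95), Wnt16 (1.65), Fgf7 (1.5), Bmp6 (1.41) and Wnt8a (1.09). Brain minus kidney differed most for Wnt16 (-1.16), Fgf12 (0.91), Wnt2b (-0.88), Wnt10a (-0.73), Wnt11 (0.68) and Dll3 (-0.54). Liver and kidney calls had opposite signs for Fzd4 (liver minus kidney -0.59) and Wnt7b (0.66).

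The liver minus kidney and liver minus brain differences of Fgf22, Celsr1 and Wnt8a, and the liver minus kidney differences of Smad1 and Fzd4, stayed called under all 18 alternatives that gave a value. The Bmp6 differences fell short once same-place medians were removed, at 0.57 for liver minus kidney (adjusted p = 0.0639) and 0.52 for liver minus brain (adjusted p = 0.102). For liver minus brain, Fgf7 kept its call under 14 of 18 alternatives. For liver minus kidney, Hes6 kept its call under 16 of 18. The Hes6 difference was -0.65 with row and column medians subtracted (adjusted p = 0.059). Among the brain minus kidney differences, Wnt2b kept its call under 17 of 18 alternatives, Wnt10a under 14, Wnt11 under 9, Dll3 under 8, and Wnt16 and Fgf12 under 5 each. Wnt16 had -0.74 without brain array 2 (adjusted p = 0.107). Fgf12 had 0.66, 0.72 and 0.09 in brain and -0.10, -0.94 and -0.21 in kidney.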

How the results depend on the processing

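The liver ratios of Celsr1, Fgf22, Fgf13, Wnt8a, Smad1, Bmp8a, Fgf8, Hes2 and Bmpr2, and the kidney ratios of Celsr1, Wnt2b, Fzd7, Fgfr2, Sfrp1, Wnt10a and Dll3, kept direction and call under all 19 alternatives (for Bmpr2, 1 of its 2 probes passed when fitted alone). The brain count of 19 was 11 with row and column medians subtracted (10 of them among the 19), 2 with each tissue fitted alone, 3 at a threshold of 0.01, and 5 to 18 without single arrays. All-gene shares in brain were 14.5%, 3.07%, 6.51%, and 6.98% to 20.7% in the same order, beside 17.2% in the main fit. Of the 18 called without brain array 3, 11 were among the 19. The kidney count of 34 was 17 at 0.01 (13.2% of all genes) and 17 to 44 without single arrays (14.4% to 34.2%). Liver minus kidney (22 members) gave 11 at 0.01 (7.05% of all genes). Liver minus brain (14) gave 7 at 0.01 (4.01% of all genes) and 7 to 16 without single arrays (6.58% to 13.2%). Brain minus kidney (7) gave 4 without probes at multiples of 8, 2 with row and column medians subtracted, 14 with array weights, 2 with the replicate block, 3 with same-place medians removed, 0 at 0.01 (7 at 0.05), and 1 to 13 without single arrays. All-gene shares for brain minus kidney were 4.61%, 4.03%, 17.3%, 3.19%, 3.46%, 0.795%, and 1.44% to 15.4% in the same order. Tissue dependence (22) gave 35 with array weights (36.6% of all genes) and 9 at 0.01 (7.15%). For a shared ratio (0), 2 members (Fzd6 and Fgfr4) passed with probes fitted one by one. Centring each array turned the liver minus brain split to 11 positive and 2 negative. The causes were not tested, beyond the stricter threshold and the fewer arrays.

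Direction turned for Bmp7 in liver, at 0.028 (adjusted p = 0.91) with same-place medians removed, and for Lrp6 in brain, at 0.346 (adjusted p = 0.0704) with row and column medians subtracted. Of 129 calls of named genes, 47 were lost in the second of these settings and 29 in the first. Replicate numbers did not pair the arrays: with the replicate block, counts were 17 in liver, 15 in brain, 32 in kidney, 20, 10 and 2 for liver minus kidney, liver minus brain and brain minus kidney, and 21 for tissue dependence. Removal of same-place medians was added after seeing the data. Normexp and a filter on dim probes were not run, since intensities were not used here, so weak spots could not be told from strong ones.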
